A study of Ocimum americanum with 4 samples.

Results

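The unigenes described here are the assembled genes of *O. americanum* var. *pilosum* (a basil) whose best Swiss-Prot match is a subunit of the chloroplast protein import machinery or of the Clp, FtsH or Deg proteases. They were chosen by wording alone: the Swiss-Prot description had to contain "FTSH", "Clp protease", "translocase of chloroplast", "translocon at the", "Protein TIC", "Protein TOC" or "Protease Do-like". Of 42816 unigenes, 84 did. The descriptions place 58 of them in the chloroplast and 9 in the mitochondrion, with 1 (FTSH11) counted in both, and 18 name neither organelle, so the set is not purely plastidial. The RNA came from leaves of 30-day-old plants raised at 21 °C according to the sample labels, while the article gives a slightly higher temperature. In the control group the plants were untreated, and in the chilling group they were moved to 4 °C for 12 h. Each group had 2 RNA-seq libraries, described by the study as biological replicates. According to the study's methods, the controls stayed in otherwise equal conditions at normal temperature and replicates were collected together. The methods also place growth in a growth room and chilling in a climate chamber, and the part of this move was not tested. Neither the number of plants behind each library nor whether both groups were collected at the same hour is given in the sources used here, and the part of the time of day in the differences was not tested.

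Most chloroplast proteins are encoded in the nucleus, made in the cytosol and carried across both envelope membranes. At the outer envelope, GTPase receptors pass the precursor to the TOC75 channel, and at the inner envelope TIC subunits form or assist a channel while stromal chaperones pull. Inside, the Clp protease degrades soluble stromal proteins: Hsp100-type ATPases of the ClpC type unfold a substrate and feed it into a barrel of ClpP and ClpR subunits. FtsH proteases sit in the thylakoid and envelope membranes and, with Deg proteases, take part in removing the photodamaged D1 protein of photosystem II.

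Transcript levels are given as FPKM, fragments per kilobase of unigene scaled to the fragments of the library, which allows levels of different unigenes to be compared per length. The 84 unigenes had mean levels from 0.3 to 430 FPKM with a median of 30.7, against a median of 3.0 FPKM over all unigenes. A level in a bulk leaf sample does not separate fewer cells of a type from less RNA per cell. Treatments were compared with limma on log2(FPKM + 1) over all 33036 unigenes with a mean of at least 1 FPKM, of which 77 are members. In what follows a unigene rose or fell where the Benjamini-Hochberg adjusted p of limma was at most 0.01, and it was called where the mean FPKM also differed by at least 2-fold. Each log2 change is the mean log2(FPKM + 1) of the chilling libraries minus that of the controls, which understates the change of low genes, and n = 2 libraries per group throughout.

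The summed FPKM of all unigenes were 875599 and 874864 in the control libraries and 773457 and 772255 in the chilling libraries. Rescaling every library to the same total (TPM) therefore moved the median log2 change of all tested unigenes from -0.0043 to 0.15. Changes are given on both scales where this matters. Libraries were also scaled by the median ratio of their unigenes to the geometric mean over libraries. That left the median at 0.0064, and 17 members rose and 31 fell, the same counts as in FPKM. The defining leaf transcripts were present, as 18 unigenes for chlorophyll a-b binding proteins and the Rubisco small subunit. They summed to 41660 FPKM in control and 15160 FPKM in chilling leaves. Of these 18, 15 were called lower, where 13.8% of all tested unigenes were. No unigene matched the root marker, and the only seed marker unigene stayed at or below 1 FPKM. The 9 floral homeotic unigenes summed to 208 and 199.8 FPKM in the control and to 241 FPKM in both chilling libraries, 138.7 and 130.4 FPKM of the control sums coming from the unigene matched to AGAMOUS. This unigene was at 117 and 119 FPKM in the chilling libraries, while 3 of the 9 were called higher: AP1A (Ob_17539), AP2 (Ob_29241) and DEFA (Ob_17363). Of all tested unigenes 11.9% were called higher. At the adjusted p 4 of the 9 rose and 2 fell, where 24.6% of all tested unigenes rose and 23.3% fell. The part of these markers in the results was not tested.

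Few members passed the 2-fold threshold. Of 77 tested members, 3 (3.90%) were called, all lower, where 25.6% of all tested unigenes were called, 11.9% higher and 13.8% lower. On the TPM scale 2 members were called higher and none lower, where 15.3% of all tested unigenes were called higher and 11.1% lower. No member was at least 2-fold higher in FPKM even at an unadjusted p under 0.05 in limma. The changes were nevertheless resolved: 48 members (62.3%) passed the adjusted p at any size, 17 rising and 31 falling, against 47.9% of all tested unigenes, 24.6% rising and 23.3% falling. These counts rest on all 4 libraries and on the trend in the prior variance: on leaving out any 1 library 5 to 6 members rose and 11 to 12 fell, and without the trend 7 rose and 16 fell. In TPM 25 members rose and 21 fell, against 31.4% and 18.6% of all tested unigenes.

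The comparison was repeated among abundant unigenes, since low values carry more error. Among unigenes with a mean of at least 10 FPKM, 2 of 65 members (3.08%) were called against 21.6% of 12989 unigenes, while 70.8% of these members and 68.7% of all these unigenes passed the adjusted p. At this level 73.8% of members and 57.8% of all unigenes lay within 1.5-fold of the control, and the median absolute log2 change was 0.33 for members and 0.46 for all. The median signed log2 change of the 77 members was -0.14 in FPKM, against -0.0043 for all tested unigenes, and 0.03 in TPM, against 0.15. Both libraries of a group lay on the same side of both libraries of the other for 72 of 84 members (85.7%), where 76.0% of all unigenes did so.

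**Figure D1:**
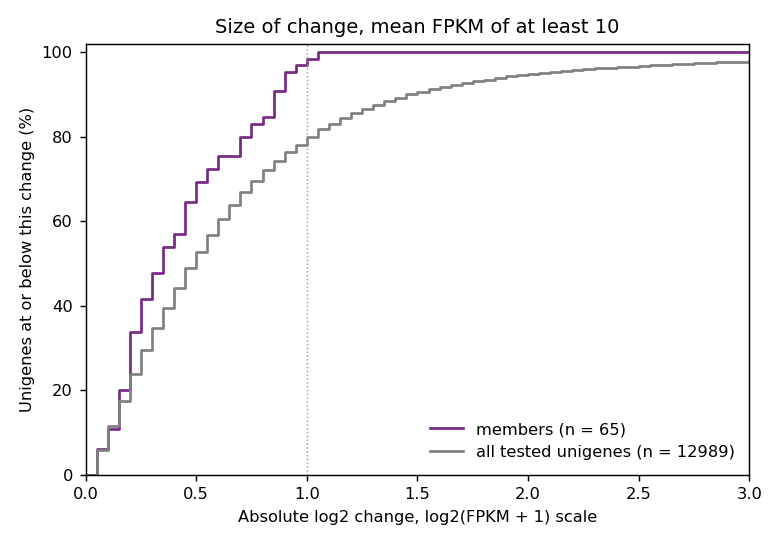
Cumulative share of unigenes (y axis, %) at or below a given absolute log2 change between chilling and control (x axis, log2(FPKM + 1) scale) for the 65 members and all 12989 tested unigenes with a mean of at least 10 FPKM; the dotted line marks 1 on the log2 scale. The curve of the members lies above that of all unigenes from a change of about 0.15 upwards, with medians of 0.33 and 0.46.

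The assembly limits what single unigenes show. The 84 members share 58 Swiss-Prot entries, and 43 members share their entry with another member, so that some may be parts or copies of 1 gene between which reads were divided. In addition, 8 members (9.52%) have their best match to a grass in the wider protein database. These 8 are near the floor, at no more than 1.92 FPKM in any library, and include all 7 members that were below the filter and were not tested: FTSH5 (Ob_01232 and Ob_01233), FTSH8 (Ob_39403), CLPP4 (Ob_40896), clpX (Ob_42442), TIC40 (Ob_04576) and DEGP7 (Ob_37227).

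At the outer envelope, 6 of 9 members fell and 1 rose, where 23.3% of all tested unigenes fell and 24.6% rose. All 9 had a mean above 10 FPKM, and 68.7% of all unigenes with a mean of at least 10 FPKM passed in either direction. The unigenes of the channel protein TOC75-3 fell most. Ob_33179 had 117 and 116 FPKM in the control libraries and 60.8 and 59.1 FPKM in the chilling libraries. The groups did not overlap, and the level was 1.94-fold lower, just short of the threshold for a call (log2 change -0.94, SE 0.03, adjusted p = 1e-06 in limma). The second TOC75-3 unigene, Ob_33180, was far less abundant and fell from 12.5 and 14.4 to 8.17 and 6.80 FPKM (1.80-fold, adjusted p = 0.0015 in limma). Both also fell in TPM, with log2 changes of -0.77 and -0.62.

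The GTPase receptors moved less than the channel. TOC34 (Ob_16523), the most abundant outer envelope member, had 240 and 247 FPKM in control and 209 and 208 FPKM in chilling leaves, a log2 change of -0.22 (SE 0.02, adjusted p = 0.00018 in limma) that was -0.04 and no longer significant in TPM (adjusted p = 0.12). The level was lower in both chilling libraries, although by only 1.17-fold. TOC159, the receptor known for photosynthetic precursors in Arabidopsis, was split over a pair of unigenes with opposite changes. Ob_36302 had 45.6 and 44.6 FPKM in control and 39.4 and 39.6 FPKM in chilling leaves (log2 change -0.19, adjusted p = 0.0069 in limma), whereas Ob_36466 had 11.7 and 11.6 FPKM and then 17.0 and 16.1 FPKM (log2 change 0.47, adjusted p = 0.0015). Summed over both, TOC159 was level, at 57.4 and 56.2 FPKM in control and 56.3 and 55.8 FPKM in chilling leaves. In TPM the fall of Ob_36302 was lost (log2 change -0.01) and the rise of Ob_36466 was kept. TOC120 (log2 change -0.34) and the receptor TOC64 (-0.35) also fell in FPKM but not in TPM, where their adjusted p was 0.052 and 0.039, and TOC90 passed on neither scale.

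At the inner envelope, 8 of 14 tested members fell and 3 rose, against 23.3% and 24.6% of all tested unigenes. These 14 also had means above 10 FPKM, and 68.7% of all unigenes with a mean of at least 10 FPKM passed in either direction. The changes ran in opposite directions between subunits. TIC20-II (Ob_10932), 1 of 3 relatives here of the TIC20 channel protein, was called lower. It had 49.6 and 55.5 FPKM in control and 25.2 and 26.4 FPKM in chilling leaves. Its control libraries differed more from each other than its chilling libraries did, but the groups were well apart, and the fall was 2.04-fold (log2 change -0.996, SE 0.06, adjusted p = 2.6e-05 in limma). The call rests on a ratio close to the threshold: without control replicate 2 the fall was 1.92-fold, without chilling replicate 1 it was 1.99-fold, without chilling replicate 2 the adjusted p was 0.011, and in TPM the fall was 1.80-fold.

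The other TIC20 members did not follow it. TIC20-I (Ob_22110), the form regarded as the main channel component in Arabidopsis, had 126 and 125 FPKM in control and 114 and 118 FPKM in chilling leaves. This 1.08-fold difference missed the threshold (adjusted p = 0.011 in limma), and its log2 change of -0.11 became 0.07 in TPM. TIC20-V (Ob_16959) rose from 71.7 and 70.7 to 98.3 and 95.5 FPKM (1.36-fold, log2 change 0.44, SE 0.03, adjusted p = 3.9e-05). Thus the 3 TIC20 relatives held a fall, a rise and a difference that did not pass.

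TIC110, a scaffold for stromal chaperones at the inner envelope, was at 85.6 and 83.2 FPKM in control and 46.1 and 45.3 FPKM in chilling leaves (Ob_30386). The groups were far apart relative to their replicates, and the fall was 1.85-fold (log2 change -0.87, SE 0.04, adjusted p = 2.9e-06 in limma). TIC40 (Ob_26861), its co-chaperone partner, fell 1.32-fold from 86.8 and 89.1 to 67.4 and 65.9 FPKM (adjusted p = 8.3e-05). Both falls were also past the threshold in TPM.

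TIC62 and TIC55, a pair of subunits linked to redox chemistry, fell as well. TIC62 was the most abundant import member: Ob_26918 had 379 and 375 FPKM in control and 305 and 308 FPKM in chilling leaves, a fall of 1.23-fold (log2 change -0.30, SE 0.02, adjusted p = 1.3e-05 in limma). The other TIC62 unigene, Ob_30990, matched to another entry, fell 1.43-fold from 113 and 111 to 78.3 and 78.9 FPKM (log2 change -0.51, adjusted p = 1.2e-05). The match of Ob_26918 was the weaker of these 2, with a BLASTX expectation value of 1e-15 against 1e-121. TIC55, an iron-sulfur protein, was spread over 3 unigenes that all fell, with a summed level of 46.6 and 48.1 FPKM in control and 29.5 and 29.8 FPKM in chilling leaves. In TPM 1 of the 3, Ob_32841, no longer passed (adjusted p = 0.011).

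TIC21 rose. This inner envelope protein is known in Arabidopsis both for import and for iron transport. Ob_24886 had 31.6 and 30.9 FPKM in control and 58.2 and 59.8 FPKM in chilling leaves. Its chilling values exceeded both control values by 1.89-fold on average (log2 change 0.90, SE 0.04, adjusted p = 5.5e-06 in limma), and by 2.14-fold in TPM, where it was called. Ob_24885, matched to the same entry, rose 1.59-fold from 44.3 and 46.1 to 72.1 and 71.7 FPKM. Neither TIC22 nor TIC22L, of the space between the membranes, passed in FPKM, at adjusted p of 0.089 and 0.059, although TIC22L did in TPM (log2 change 0.34, adjusted p = 0.0037).

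**Figure D2:**
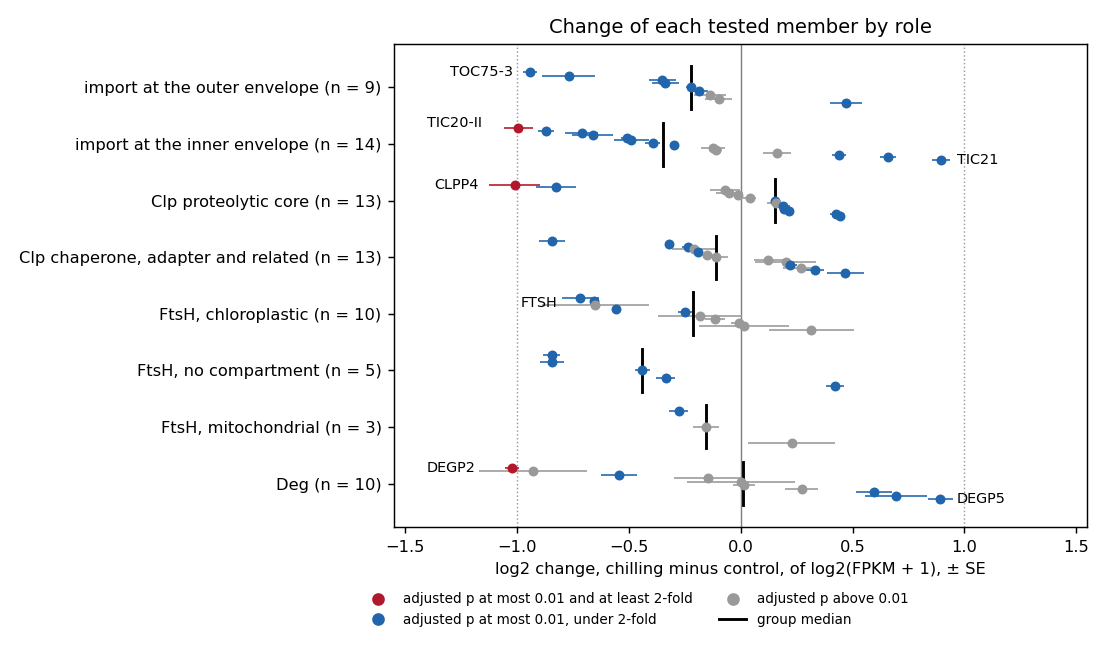
Log2 change of each of the 77 tested members (x axis, chilling minus control, log2(FPKM + 1); bars are the SE from limma) by role (y axis, with the number tested); black lines are group medians and dotted lines mark 1 on the log2 scale in each direction. The 3 members called lower are DEGP2, TIC20-II and CLPP4 (Ob_16907), the import and FtsH groups lie mostly to the left of 0, and most of the Clp proteolytic core lies slightly to the right.

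The proteolytic core of Clp had the most rising members of any role group. Of 13 tested core unigenes 6 rose, 2 fell and 5 did not pass, and in TPM 9 rose and 2 fell. Over all tested unigenes 24.6% rose and 23.3% fell, and in TPM 31.4% rose and 18.6% fell. Among those with a mean of at least 10 FPKM, 68.7% passed in either direction. CLPP3, CLPP6, CLPP5, CLPR1, CLPR3 and CLPR4 each had 1 unigene, and all 6 rose on both scales. The CLPR2 unigenes Ob_29730 and Ob_29731 did not pass in FPKM (adjusted p = 0.017 and 0.26 in limma) but rose in TPM. A clpP unigene (Ob_11767) passed on neither scale (adjusted p = 0.37 in FPKM). CLPP subunits carry the active site and CLPR subunits lack it.

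The 6 rises ran from 1.11-fold to 1.36-fold. CLPR1 (Ob_21762), the most abundant, had 307 and 305 FPKM in control and 355 and 355 FPKM in chilling leaves (log2 change 0.21, SE 0.02, adjusted p = 4.7e-05 in limma). CLPP5 (Ob_26092) had 255 and 260 FPKM and then 285 and 286 FPKM (log2 change 0.15, SE 0.02, adjusted p = 0.00054), and CLPR3 (Ob_20256) had 197 and 202 FPKM and then 229 and 228 FPKM (log2 change 0.19, SE 0.02, adjusted p = 0.00028). In each of these subunits both chilling libraries lay above both control libraries. CLPP3 (Ob_19821) rose most, from 174 and 173 to 238 and 234 FPKM (1.36-fold, adjusted p = 5.4e-06), followed by CLPP6 (Ob_26961), from 157 and 155 to 205 and 213.6 FPKM (1.34-fold, adjusted p = 2e-05). The 8 chloroplastic core unigenes with a mean of at least 100 FPKM lay between 0.99 and 1.36 times their control level.

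CLPP4 showed how unigenes of 1 entry can disagree. Its main unigene, Ob_21944, holds 86.6% of the CLPP4 control level and was at 195 and 196 FPKM in control and 197 and 191 FPKM in chilling leaves. The groups overlapped, and the difference did not pass in FPKM (log2 change -0.01, adjusted p = 0.64 in limma), while in TPM it was a rise of 0.17 (adjusted p = 0.0011). The minor unigene Ob_16907 was called lower, with 11.8 and 11.6 FPKM in control and 4.85 and 5.79 FPKM in chilling leaves (2.20-fold, log2 change -1.01, SE 0.11, adjusted p = 0.00033). Ob_14682, also minor, fell 1.86-fold from 16.5 and 18.1 to 9.79 and 8.85 FPKM. The call of Ob_16907 was lost on leaving out any of the 4 libraries (adjusted p from 0.013 to 0.03) and in TPM, where the fall was 1.94-fold. Summed over its 4 unigenes, CLPP4 stood at 0.92 of its control level. The mitochondrial CLPP2 (Ob_27504) had 48.4 and 54.6 FPKM and then 49.9 and 49.3 FPKM, which overlap, and did not pass (adjusted p = 0.48).

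The ClpC-type chaperones, matched to the tomato proteins CD4A and CD4B, did not follow the core. Ob_36689 (CD4B), the most abundant, had 334 and 333 FPKM in control and 269 and 265 FPKM in chilling leaves (log2 change -0.32, SE 0.02, adjusted p = 1.1e-05 in limma). Ob_15469 (CD4B) had 140 and 143 FPKM and then 120 and 120 FPKM (log2 change -0.24, SE 0.02, adjusted p = 0.00022), and in TPM its change of -0.06 did not pass (adjusted p = 0.07). Both chilling libraries were below both control libraries in each. Ob_12778 (CD4B) fell furthest, 1.83-fold, from 40.5 and 40.4 to 21.2 and 23.0 FPKM (adjusted p = 3e-05). Its match to CD4B was the weakest, with a BLASTX expectation value of 2e-09. The fourth CD4B unigene and the only CD4A unigene did not pass.

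The ratio of these chaperone members to the core therefore differed between the groups. The summed FPKM of CD4A and CD4B was 0.339 and 0.338 of that of the 12 core unigenes described as chloroplastic in the control libraries, and 0.236 and 0.235 in the chilling libraries. This ratio is the same in FPKM and TPM, and with 2 libraries per group it was not tested. It leaves out the ClpC and ClpD unigenes outside the chosen wording, described below. Among these, 1 of 5 ClpC unigenes fell and 2 of 3 ClpD unigenes were called higher. Of all tested unigenes, 23.3% fell and 11.9% were called higher. The remaining members of the Clp group were mixed. At4g12060, described as Clp protease-related, had 4 unigenes, of which Ob_16023 fell from 149 and 150 to 129 and 132 FPKM (log2 change -0.19, SE 0.02, adjusted p = 0.00065) and Ob_28572 rose from 71.2 and 71.8 to 83.8 and 83.1 FPKM (log2 change 0.22, adjusted p = 0.00083). Their sum over all 4 was level, at 262 and 259 FPKM in control and 258 and 260 FPKM in chilling leaves, and in TPM the fall of Ob_16023 was lost (adjusted p = 0.63). The adapter clpS (Ob_11098) did not pass (adjusted p = 0.025). Of 3 tested clpX unigenes, a chaperone of the mitochondrial protease in plants, Ob_31392 and Ob_33997 rose, by 1.26-fold and 1.42-fold.

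**Figure D3:**
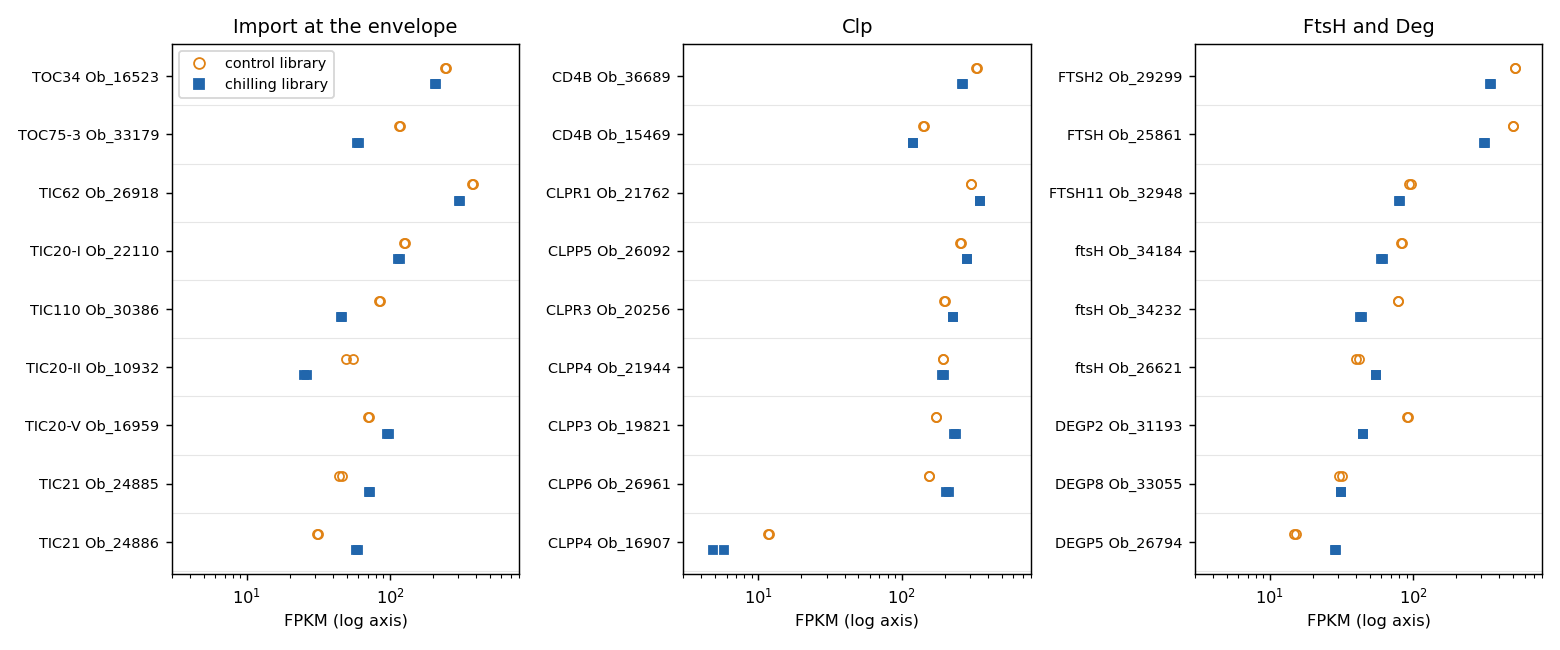
FPKM in each library (x axis, log scale) for 27 members in 3 panels: import, Clp, and FtsH with Deg; open circles are the 2 control libraries and filled squares the 2 chilling libraries. Replicates lie close together, TOC75-3, TIC110, TIC20-II and DEGP2 stand lower in both chilling libraries, TIC21 and DEGP5 stand higher, and CLPP4 (Ob_21944) and DEGP8 overlap.

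The FtsH members fell or did not pass, apart from 1. Of 18 tested, 9 fell and 1 rose, and on the TPM scale 6 fell and 2 rose. Over all tested unigenes 23.3% fell and 24.6% rose, and in TPM 18.6% fell and 31.4% rose. Among unigenes with a mean of at least 10 FPKM, 68.7% passed in either direction in FPKM. The pair of abundant unigenes, which match rice FTSH2 and the FTSH of tobacco, carried most of the level. FTSH2 (Ob_29299), in Arabidopsis a main subunit of the thylakoid complex, had 512 and 512 FPKM in control and 351 and 343 FPKM in chilling leaves (log2 change -0.56, SE 0.02, adjusted p = 6.7e-07 in limma). FTSH (Ob_25861) had 501 and 499 FPKM and then 314 and 318 FPKM (log2 change -0.66, SE 0.02, adjusted p = 2.3e-07). They fell 1.48-fold and 1.58-fold, with wide gaps between the groups, and fell in TPM too, by 0.38 and 0.48 on the log2 scale. Their ratio, FTSH2 over FTSH, was 1.02 and 1.03 in control and 1.12 and 1.08 in chilling leaves. 

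The other FtsH genes of the chloroplast were less abundant. FTSH11 (Ob_32948), described as both chloroplastic and mitochondrial, had 97.3 and 93.9 FPKM in control and 80.5 and 80.1 FPKM in chilling leaves (log2 change -0.25, SE 0.03, adjusted p = 0.00058 in limma). The fall was not kept in TPM (adjusted p = 0.085). FTSH7 (Ob_30897) was level in FPKM, with 58.1 and 57.1 FPKM and then 57.7 and 56.8 FPKM that overlapped (adjusted p = 0.85), and its TPM change of 0.17 passed (adjusted p = 0.0056). Of the FTSH9 pair Ob_26089 fell 1.69-fold, from 24.5 and 28.1 to 15.0 and 16.1 FPKM, and Ob_26090 did not pass (adjusted p = 0.42). The FTSH12 and FTSH6 unigenes did not pass, FTSH6 at no more than 2.51 FPKM in any library.

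A further 5 unigenes match bacterial or algal FtsH entries without a stated compartment. Ob_34184 had 83.2 and 82.8 FPKM in control and 60.05 and 61.7 FPKM in chilling leaves (log2 change -0.44, SE 0.03, adjusted p = 4.8e-05 in limma). Ob_34232 had 78.3 and 79.0 FPKM and then 44.2 and 42.4 FPKM (log2 change -0.85, SE 0.04, adjusted p = 4.3e-06), and Ob_26621 had 40.2 and 41.7 FPKM and then 54.9 and 55.4 FPKM (log2 change 0.42, SE 0.04, adjusted p = 0.00016). Thus Ob_26621 stood alone among FtsH unigenes in rising in FPKM. Ob_35074 fell 1.84-fold and ftsH3 (Ob_32787) 1.27-fold, the latter not in TPM (adjusted p = 0.015).

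Among the mitochondrial FtsH members, FTSH4 (Ob_35080) had 46.0 and 44.5 FPKM in control and 37.5 and 36.8 FPKM in chilling leaves, a log2 change of -0.28 (SE 0.04, adjusted p = 0.0015 in limma) that was -0.10 in TPM (adjusted p = 0.074). FTSH10 (Ob_36185) had 33.4 and 30.5 FPKM and then 29.0 and 28.1 FPKM and did not pass (log2 change -0.16, adjusted p = 0.059), with a TPM change of 0.02. A second FTSH4 unigene (Ob_39838) was close to 1 FPKM in every library and did not pass either.

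The Deg proteases differed from one another in direction. DEGP2 (Ob_31193), a protease of the stromal face of the thylakoid in Arabidopsis, had 91.5 and 90.8 FPKM in control and 44.4 and 44.3 FPKM in chilling leaves. It was called lower, by 2.05-fold, with replicates far closer than the groups (log2 change -1.02, SE 0.03, adjusted p = 9.3e-07 in limma). The call was kept on leaving out each library in turn (adjusted p from 0.0028 to 0.0046). In TPM the fall was 1.82-fold, still past the adjusted p but under 2-fold.

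DEGP5 and DEGP8, which act together in the thylakoid lumen of Arabidopsis, did not move together. DEGP5 (Ob_26794) had 14.8 and 15.2 FPKM in control and 28.8 and 28.6 FPKM in chilling leaves, 1.91-fold higher (log2 change 0.89, SE 0.06, adjusted p = 2.5e-05 in limma). In TPM the rise was 2.17-fold and was called. DEGP8 (Ob_33055) had 31.7 and 30.4 FPKM and then 31.3 and 31.5 FPKM, which overlap (log2 change 0.02, SE 0.05, adjusted p = 0.79). The control level of DEGP5 was the lower of the pair, and in the chilling libraries the values of both lay between 28.6 and 31.5 FPKM. DEGP7 (Ob_36483) and DEGP14 (Ob_20725) also rose, 1.57-fold and 1.76-fold from low levels, DEGP9 (Ob_33524) fell 1.49-fold, and the mitochondrial DEGP10 did not pass. A more abundant DEGP7 unigene, Ob_36484, had 13.9 and 15.2 FPKM and then 17.4 and 18.2 FPKM. It did not pass in FPKM (adjusted p = 0.018 in limma) but did in TPM (adjusted p = 0.0024). Summed over its unigenes, DEGP7 stood at 1.245 of its control level. The grass-like DEGP7 unigene Ob_38935 had 1.92 and 1.65 FPKM and then 0.24 and 0.72 FPKM and did not pass (adjusted p = 0.015).

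In summed FPKM, the members together held 0.69% of each control library and 0.70% of each chilling library. Their sum was 6026 and 6054 FPKM in control and 5410 and 5413 FPKM in chilling leaves, a difference of -10.4% beside -11.7% for all unigenes. By role the sums differed by -30.5% for chloroplastic FtsH (1243 to 864 FPKM), by -21.3% for import at the outer envelope (538 to 424 FPKM), by -12.7% for import at the inner envelope (1089 to 951 FPKM) and by 13.7% for the Clp core (1637 to 1861 FPKM). The replicate sums of each of these 4 groups lay much closer together than those of the treatments. Differences between role groups were not tested.

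**Figure D4:**
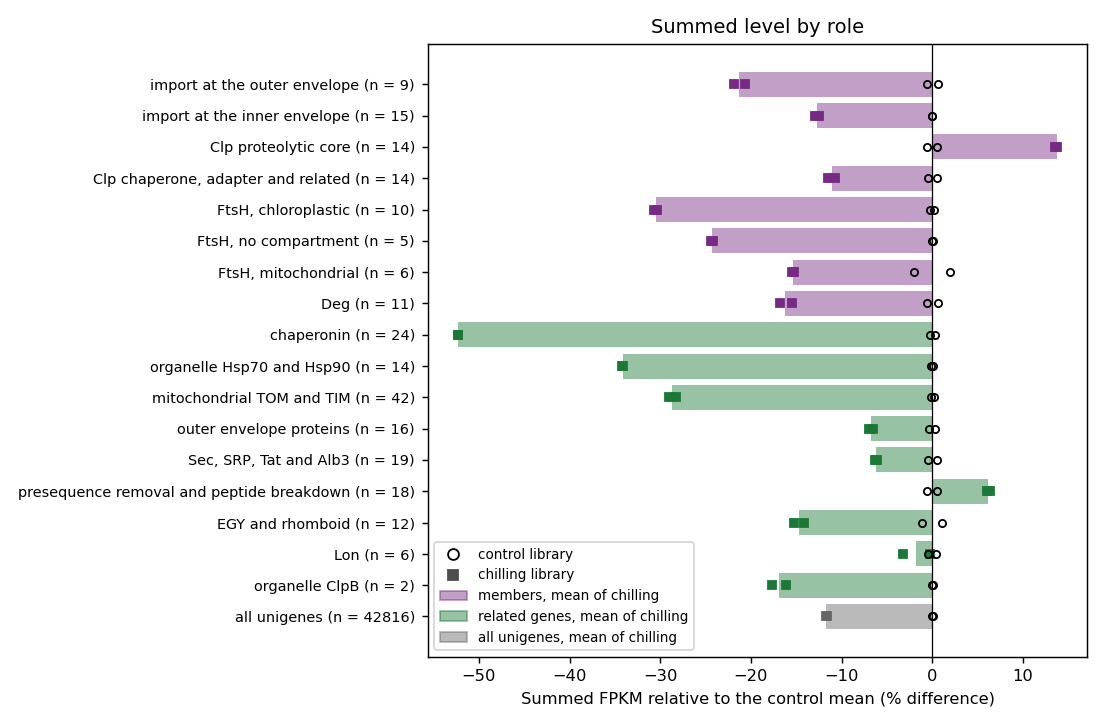
Summed FPKM of each role group relative to the mean of its 2 control libraries (x axis, % difference); bars show the chilling mean, squares each chilling library and open circles each control library, with the number of unigenes after each name. The Clp core lies at 13.7% and chloroplastic FtsH at -30.5%, chaperonins at -52.3%, and the sum of all unigenes at -11.7%.

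Entries with several unigenes were also followed as a whole. Of the 15 entries with several tested members, 8 had members that only fell, 2 had members that only rose, 2 (TOC159 and At4g12060) had both, and 3 had none that passed. Summed by entry, 2 of the 51 entries with a mean of at least 10 FPKM were at least 2-fold lower, DEGP2 and TIC20-II, and none was 2-fold higher. Across all members, 10 lay past the adjusted p and just under 2-fold, 7 lower (from 1.80-fold to 1.94-fold) and 3 higher (from 1.76-fold to 1.91-fold). Of the 31 members that fell in FPKM, 21 also fell in TPM, and all 17 that rose in FPKM rose in TPM.

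A list of 153 other unigenes for organelle import, folding and proteolysis gives the surroundings. Of 129 tested, 20 were called lower and 4 higher, and 60 fell and 22 rose at the adjusted p of limma, with a median log2 change of -0.29 (TPM -0.12). The share called lower, 15.5%, was near the 13.8% of all tested unigenes, and the share called higher was 3.1% against 11.9%. On leaving out any 1 library 10 to 12 were called lower and 2 to 3 higher. The chaperonins, which fold imported proteins such as the Rubisco large subunit, stood out by level: 7 of 22 tested (31.8%) were called lower, against 13.8% of all tested unigenes, and the summed FPKM of all 24 went from 3876 to 1847. A single chaperonin rose in FPKM, CPN60B4 (Ob_31287), from 49.8 and 47.5 to 82.7 and 84.3 FPKM (1.72-fold, adjusted p = 7.1e-06 in limma), and 3 rose in TPM. CPN21 (Ob_27751) had 1170 and 1173 FPKM in control and 458 and 461 FPKM in chilling leaves (log2 change -1.35, SE 0.01, adjusted p = 5.1e-09). CPN60B2 (Ob_34747) had 945 and 960 FPKM and then 377 and 378 FPKM (log2 change -1.33, SE 0.01, adjusted p = 1e-08), and the Rubisco-binding alpha subunit (Ob_32641) had 668 and 665 FPKM and then 220 and 225 FPKM (log2 change -1.58, SE 0.02, adjusted p = 1.3e-08). In all 3 the chilling mean was at most 0.40 of the control mean, and these falls were called in TPM as well. CPN60B1 (Ob_10635) and the mitochondrial CPN60I (Ob_39667) were called lower by 3.13-fold and 5.17-fold, CPN60I at no more than 5.36 FPKM and with a grass as its best match in the wider protein database. The calls of CPN21, CPN60B2, the Rubisco-binding alpha subunit and CPN60B1 were kept on leaving out each library in turn, and that of CPN60I was lost each time (adjusted p from 0.012 to 0.023).

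Other import and protease lists were mixed. Of 37 tested mitochondrial TOM and TIM unigenes, 26 fell (70.3%, against 23.3% of all tested unigenes) and none rose at the adjusted p. In TPM 18 fell and 1 rose. Among all unigenes with a mean of at least 10 FPKM, 68.7% passed in either direction in FPKM. The 6 that were called lower are 16.2% of the list, near the 13.8% of all tested unigenes. The thylakoid zinc metalloprotease EGY2 (Ob_30706) was called lower, with 127 and 123 FPKM in control and 30.1 and 29.5 FPKM in chilling leaves (4.19-fold, adjusted p = 8.3e-08 in limma). The peroxisomal protease LON2 (Ob_30214) was called higher, with 18.9 and 17.4 FPKM and then 50.5 and 51.0 FPKM (2.80-fold, adjusted p = 2.7e-06). The rhomboid-like rhbdf1 (Ob_19348) and the envelope pore protein OEP164 (Ob_18337) were called higher by 3.86-fold and 2.35-fold. Of these 4 calls that of OEP164 was lost on leaving out any library (adjusted p from 0.012 to 0.037) and the others were kept.

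Clp chaperones and TIC subunits whose descriptions use other words lie outside the chosen wording, and these 22 unigenes were looked up after their descriptions were seen. Of the 22, all tested, 9 rose and 3 fell, with 4 called higher and 1 lower. Thus 40.9% rose and 13.6% fell, against 24.6% and 23.3% of all tested unigenes. The shares called were 18.2% higher and 4.55% lower, against 11.9% and 13.8%. Of 3 unigenes for ClpD, a relative of ClpC known in Arabidopsis for induction by drying, 2 were called higher: Ob_35694 had 14.4 and 13.4 FPKM in control and 36.2 and 36.7 FPKM in chilling leaves (2.63-fold, adjusted p = 5.2e-06 in limma), and Ob_10941 had 10.2 and 8.70 FPKM and then 36.4 and 31.9 FPKM (3.62-fold, adjusted p = 1.3e-05). The third, Ob_02326, had 1.03 and 0.68 FPKM and then 2.45 and 1.73 FPKM and did not pass (adjusted p = 0.026). A ClpC unigene (Ob_15470) fell as the CD4B unigenes did, from 152 and 158 to 108 and 98.8 FPKM (log2 change -0.58, adjusted p = 6.3e-05), and the other 4 ClpC unigenes did not pass.

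TIC32, a short-chain dehydrogenase counted among the inner envelope subunits, matched 14 of these unigenes, of which 7 rose and 2 fell. The most abundant, Ob_21244, fell 1.57-fold from 101.9 and 103.8 to 66.2 and 64.8 FPKM (log2 change -0.64, SE 0.03, adjusted p = 6.1e-06 in limma). Ob_24985 was called higher, with 5.23 and 6.42 FPKM in control and 17.0 and 17.3 FPKM in chilling leaves (2.94-fold, adjusted p = 6e-05). Ob_24984 was also called higher, with 0.27 and 0.78 FPKM and then 7.01 and 5.85 FPKM, and Ob_28759 was called lower, with 2.86 and 4.5 FPKM and then 0.58 and 0 FPKM. The groups did not overlap in any of the 4, as in 76.0% of all unigenes. The call of Ob_24985 was lost without either chilling replicate (adjusted p up to 0.018), and those of Ob_24984 and Ob_28759 on leaving out any library (adjusted p from 0.011 to 0.022 and from 0.023 to 0.057).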

How the data were processed

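Transcripts of leaves were measured by RNA-seq. The authors trimmed the reads, pooled those of all 4 libraries for a de novo assembly with Trinity, kept the longest isoform per gene, and deposited FPKM per unigene, rounded to 2 decimals. They annotated unigenes with BLASTX at an expectation value of 1e-05, and the deposited annotation gives each best match. Their deposited lists of changed genes hold fold changes and p-values from edgeR, and 8 columns of FPKM repeated there were not used.

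Members and lists were chosen with earlier results of these data known. Log2(FPKM + 1) was fitted with limma 3.58.1 in R 4.3.3, with a trend in the prior variance, for every unigene whose FPKM averaged 1 or more. The fit had 2 residual degrees of freedom and a prior of 4.41. Calls required adjusted p-values of 0.01 or less together with a 2-fold ratio of mean FPKM. FPKM were used without a count model. Scripts were tested on simulated data.

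Unigenes were named by rule: every called member, the 3 most abundant members of each role group, and in the related list up to 3 called per direction with the largest change plus the 3 most abundant. All other unigenes named were chosen after their values were seen.

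The study gives the clean reads of each library, and both chilling libraries had fewer than both control libraries. FPKM hold no counts, so the reads behind each unigene are known only roughly. The median ratio of low FPKM values between replicates was 0.98 in both groups. P-values rest on the spread between the 2 libraries of each group, drawn towards a trend with level over all tested unigenes. This prior weighed more than the libraries, with 4.41 degrees of freedom against 2 residual. The alternatives were TPM, median-ratio scaling, other pseudocounts, filters and thresholds, no trend, a replicate block, and leaving out libraries or grass-like unigenes. No sequences are printed.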

Additional observations from a re-analysis of the deposited data

How the results depend on the processing

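The count of called members moved with TPM scaling and with single libraries. Under median-ratio scaling it stayed at 3 lower and 0 higher. In TPM 2 members were called higher (TIC21 Ob_24886 and DEGP5) and 0 lower, and the median log2 change of the members became 0.0342. Leaving out 1 library gave 1 to 2 members called lower, 2 to 3 unigenes of the related list called higher and 10 to 12 called lower. Among named members, TIC20-I (0.0651) and FTSH10 (0.0187) had another sign in TPM, and DEGP8 ranged from -0.0122 (without control replicate 2) to 0.0436 on leaving out 1 library. None of these had passed. Under the other alternatives the counts of called members and related unigenes stayed within 1.5 times, including the one chosen after seeing the data, 1 unigene per Swiss-Prot entry (2 members called lower). Over all unigenes, leaving out 1 library gave 1242 to 1575 called higher and 1586 to 1686 lower, against 3917 and 4548, and with a mean of at least 5 FPKM 2035 and 2193 of 17766 tested were called. With a replicate block 3 members were called lower and 0 higher, and 19 and 4 of the related list. The block lowered the calls over all unigenes from 3917 to 3576 higher and from 4548 to 4102 lower. Deviations of control 1 and chilling 1 from their group means correlated at 0.0076 over all tested unigenes. A shared effect on few unigenes would hardly move this value. Whether same-numbered libraries shared any handling was not tested. With 2 libraries per group and FPKM without counts, changes of unigenes near 1 FPKM are poorly determined.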
